A study of Mus musculus with 9 samples.

Results

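Lin28 proteins and the enzymes that make and use microRNAs were followed through a knockdown of Apela, which encodes a short secreted peptide. The set was the 9 genes Lin28a, Lin28b, Trim71, Dicer1, Dgcr8, Drosha, Xpo5, Ago2 and Dis3l2, out of 19938 genes measured. They were listed by name, and each was read from the brightest probe set that carried its symbol alone. The set was chosen by the measured Lin28a levels, which differed between the Apela hairpins, so these levels are a description and carry no p-value. The difference between the hairpins is given without p-values for every gene.

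Total RNA was measured on 9 Affymetrix arrays of R1E cells, a line of mouse embryonic stem cells. All cells were cultured in 15% fetal bovine serum with 1000 units/ml of Lif, the cytokine that holds such cells in the undifferentiated state, and received no drug. Every group carried a lentiviral short hairpin RNA. The control hairpin was directed at luciferase (shLuc), and shApela #1 and shApela #2 were directed at Apela, with 3 arrays in each of the 3 groups. Not given in the sources used here are the hairpin sequences, the time from transduction to harvest and whether the cells were a clone. Nor do the labels state that repeats were separate cultures. The p-values then measure only the spread among these arrays, and that spread may be technical.

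Lin28a and Lin28b are RNA-binding proteins of early embryos and stem cells that keep the let-7 family of microRNAs from maturing. A microRNA begins as a long transcript, which the nuclear enzyme Drosha and its partner Dgcr8 cut to a stem-loop precursor. Exportin-5, the product of Xpo5, carries the precursor to the cytoplasm, Dicer1 cuts it to a short duplex, and one strand is loaded into Argonaute 2 (Ago2). Lin28 binds the let-7 precursor and recruits the uridyl transferases Tut4 and Tut7, whose uridine tail marks the precursor for the exonuclease Dis3l2. Trim71, the mouse counterpart of worm lin-41, is itself a let-7 target and represses messenger RNAs.

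The let-7 microRNAs are shown because they are what Lin28 acts on. The mature forms below, from RefSeq (GRCm38.p6), are written 5′ to 3′ with the seed, bases 2 to 8, in capitals. The seed pairs with target messenger RNAs.
mmu-let-7a-5p: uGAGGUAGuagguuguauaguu
mmu-let-7d-5p: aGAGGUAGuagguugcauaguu
mmu-let-7e-5p: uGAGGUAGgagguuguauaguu
mmu-let-7g-5p: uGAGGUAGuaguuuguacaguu
mmu-miR-98-5p: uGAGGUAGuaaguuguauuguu
All of these share the seed GAGGUAG, as did 11 of the 1679 mature mouse names in the table. The bases after the seed differ between family members.

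Lin28 holds let-7 precursors partly through a GGAG motif near the end of the loop. The letters GGAG were searched on the precursor's own strand, between the mature arms, in the 645 of 1005 RefSeq precursors whose arms could both be placed. They stood there in 9 of 12 let-7 family precursors and in 53 of the 645 (8.22%). Among the 62 precursors with a stretch of like length, 23 to 36 bases, 16 held them (25.8%). Both shares include the let-7 family itself, whose 9 precursors with the letters are among the 53 and the 16. Below, 3 precursors with the letters and 1 without are written 5′ to 3′, with GGAG between the arms in capitals. Let-7g lies at chr9:106178840-106178927 on the plus strand, let-7f-1 at chr13:48537829-48537917 on the minus strand, let-7i at chr10:122985640-122985724 on the minus strand and miR-98 at chrX:151913214-151913321 on the plus strand (GRCm38.p6).
Mirlet7g: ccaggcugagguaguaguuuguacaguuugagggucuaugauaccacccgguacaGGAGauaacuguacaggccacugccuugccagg
Mirlet7f-1: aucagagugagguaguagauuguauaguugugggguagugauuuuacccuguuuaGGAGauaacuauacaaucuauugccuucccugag
Mirlet7i: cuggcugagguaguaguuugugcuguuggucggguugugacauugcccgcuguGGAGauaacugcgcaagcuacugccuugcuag
Mir98: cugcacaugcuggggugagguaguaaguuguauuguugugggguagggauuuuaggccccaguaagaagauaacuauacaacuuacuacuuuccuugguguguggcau
The stretch between the arms of miR-98 holds no GGAG. The arrays measure transcripts of these loci and do not measure mature microRNAs.

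Values are log2 expression levels, so a difference of 1 is a doubling. The targeted gene, Apela, read 11.40, 11.31 and 11.19 on the shLuc arrays, 9.76, 9.68 and 9.65 with shApela #1, and 9.79, 9.79 and 9.56 with shApela #2. It fell with both hairpins (limma, adjusted p = 0.000197 and 0.000219), to 32.9% and 33.4% of the control signal. The third shApela #2 array stood apart from the other arrays, with an interquartile range of 3.29 against 3.50 to 3.59 and correlations with them of at most 0.995. The 17 embryonic stem cell markers all lay above the median probe set (7.06), with a mean per array of 11.16 to 11.29 over the 3 groups. The 8 fibroblast markers had a mean per array of 6.22 to 6.49. All 9 members also lay above the median probe set. In bulk RNA, fewer cells that express a gene and less of its RNA per cell cannot be told apart.

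Lin28a was low with shApela #1 and not with shApela #2. Its log2 level was 10.16, 10.17 and 10.31 on the shLuc arrays, 9.75, 9.70 and 9.85 with shApela #1, and 10.20, 10.17 and 10.43 with shApela #2. All shApela #1 arrays lay below all other arrays, while the shLuc and shApela #2 arrays overlapped. The group means were 10.21 ± 0.08 (SD, n = 3), 9.77 ± 0.07 and 10.27 ± 0.14. Against shLuc the difference was -0.44 (SE 0.08) with shApela #1, which left 73.5% of the control signal, and 0.05 (SE 0.08) with shApela #2. The hairpins thus stood 0.50 apart (SE 0.08), a 1.41-fold higher Lin28a signal with shApela #2, although Apela itself differed between them by 0.02 (SE 0.08).

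As a description of the arrays that chose the set, the Lin28a difference was of similar size at each replicate number. Between arrays of equal number, shApela #1 minus shLuc was -0.40, -0.47 and -0.46, and shApela #2 minus shApela #1 was 0.44, 0.47 and 0.58. Within every group the third array had the highest Lin28a level. Without the third shApela #2 array the hairpins differed by 0.42, and shApela #2 differed from shLuc by -0.03.

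Lin28b, the paralogue that acts mainly on primary let-7 transcripts in the nucleus, gave another order of the groups. It read 7.88, 7.88 and 8.08 in shLuc, 8.03, 7.88 and 8.33 with shApela #1, and 7.67, 7.60 and 7.75 with shApela #2. The shApela #2 arrays lay below all others, and the shApela #1 and shLuc arrays overlapped. Lin28b did not pass the test with shApela #1 (0.13, SE 0.11, limma adjusted p = 1) or with shApela #2 (-0.27, SE 0.11, 95% interval from -0.52 to -0.03, adjusted p = 0.68). Its level was 0.41 lower on the log2 scale with shApela #2 than with shApela #1 (7.67 ± 0.07 and 8.08 ± 0.23), where Lin28a was 0.50 higher.

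Trim71 did not pass with either hairpin. It read 10.46, 10.38 and 10.74 in shLuc, 10.59, 10.58 and 10.61 with shApela #1, and 10.55, 10.39 and 10.78 with shApela #2, and the groups overlapped. The differences from shLuc were 0.06 (SE 0.11, limma adjusted p = 1) and 0.05 (SE 0.11, adjusted p = 0.893). Its spread was wide in shLuc and shApela #2 (SD 0.19 and 0.20) and narrow in shApela #1 (SD 0.02).

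**Figure D1:**
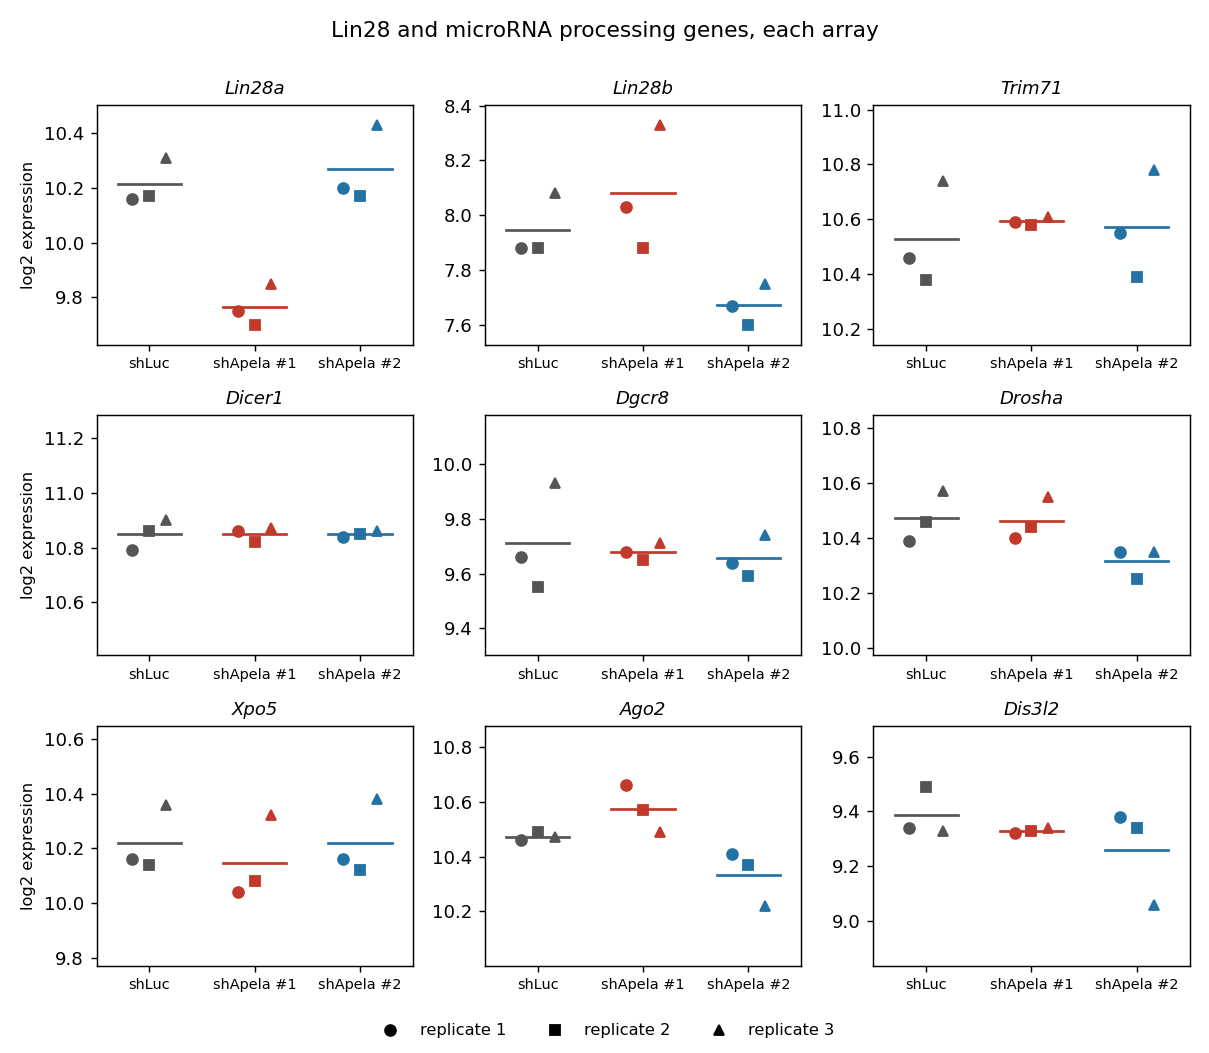
Log2 expression of the 9 genes on every array, by group (shLuc, shApela #1, shApela #2). Each point is an array, its shape gives the replicate number, and the line is the group mean. All panels span the same number of log2 units, each around its own centre. Lin28a is low on the 3 shApela #1 arrays (9.70 to 9.85), Lin28b on the 3 shApela #2 arrays (7.60 to 7.75), and Dicer1 is flat.

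The nuclear Microprocessor was near its control level, except that Drosha sat slightly lower with shApela #2. Drosha, the endonuclease, read 10.39, 10.46 and 10.57 in shLuc, 10.40, 10.44 and 10.55 with shApela #1, and 10.35, 10.25 and 10.35 with shApela #2. The shApela #2 arrays lay below all shLuc arrays by a gap of 0.039. The difference of -0.16 (SE 0.06, 95% interval from -0.29 to -0.02) did not pass the test (limma, adjusted p = 0.68), and with shApela #1 it was -0.01 (adjusted p = 1).

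Dgcr8, which binds the primary transcript for Drosha, read 9.66, 9.55 and 9.93 in shLuc, 9.68, 9.65 and 9.71 with shApela #1, and 9.64, 9.59 and 9.74 with shApela #2. The groups overlapped. The differences were -0.03 (SE 0.09, limma adjusted p = 1) and -0.06 (SE 0.09, adjusted p = 0.827). Their intervals, from -0.23 to 0.17 and from -0.26 to 0.14, leave room for changes of either sign.

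Export and dicing genes lay close to shLuc, and their groups overlapped. Xpo5, the exporter, read 10.16, 10.14 and 10.36 in shLuc, 10.04, 10.08 and 10.32 with shApela #1, and 10.16, 10.12 and 10.38 with shApela #2. Its differences were -0.08 (SE 0.10, limma adjusted p = 1) and 0.00 (SE 0.10, adjusted p = 0.998). The third array was the highest of each group. Between arrays of equal number, Xpo5 with shApela #1 minus shLuc was -0.13, -0.06 and -0.04.

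Dicer1 had the smallest standard error of the 9 genes (0.04). It read 10.79, 10.86 and 10.90 in shLuc, 10.86, 10.82 and 10.87 with shApela #1, and 10.84, 10.85 and 10.86 with shApela #2. Both differences were 0.00, each with a 95% interval from -0.09 to 0.09 (limma, adjusted p = 1 and 0.996).

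Ago2, the Argonaute able to cleave its targets, lay above shLuc with shApela #1 and below it with shApela #2. It read 10.46, 10.49 and 10.47 in shLuc, 10.66, 10.57 and 10.49 with shApela #1, and 10.41, 10.37 and 10.22 with shApela #2. The 3 groups did not overlap, but the gap from shLuc to shApela #1 was only 0.004 and that to shApela #2 was 0.058. Neither difference passed the test: 0.10 (SE 0.06, limma adjusted p = 0.865) and -0.14 (SE 0.06, adjusted p = 0.68). The second was -0.08 without the third shApela #2 array.

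A second, dimmer Ago2 probe set gave the same signs with overlapping groups. It read 9.34, 9.26 and 9.36 in shLuc, 9.52, 9.44 and 9.34 with shApela #1, and 9.33, 9.01 and 9.34 with shApela #2. Its differences were 0.11 and -0.10. The other 8 members had 1 such probe set each.

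Dis3l2, the nuclease that removes uridylated let-7 precursors, read 9.34, 9.49 and 9.33 in shLuc, 9.32, 9.33 and 9.34 with shApela #1, and 9.38, 9.34 and 9.06 with shApela #2. The groups overlapped, and the lowest value was on the third shApela #2 array. The differences were -0.06 (SE 0.08, limma adjusted p = 1) and -0.12 (SE 0.08, adjusted p = 0.68). Without that array the second was -0.02.

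**Figure D2:**
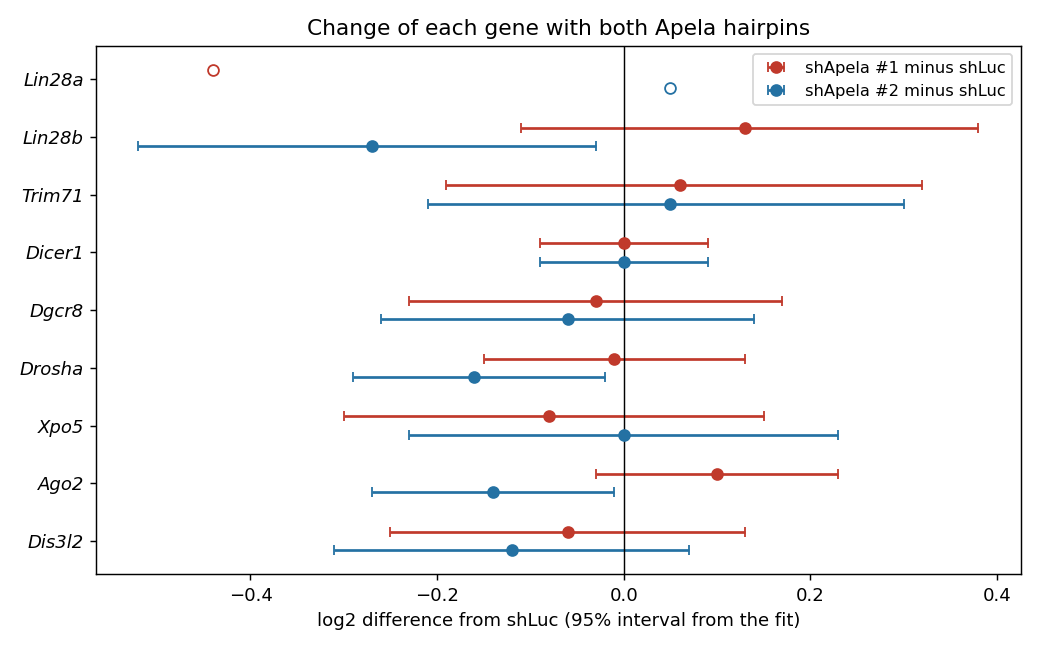
Log2 difference of each gene from shLuc with shApela #1 and with shApela #2. Bars are 95% intervals from limma, and Lin28a is drawn hollow with no interval because it was chosen for its values. Lin28a stands at -0.44 and 0.05, Lin28b at 0.13 and -0.27, and both Dicer1 values are at 0.00.

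Lin28a is in no count of calls, since it was chosen by its values. Against shLuc, 0 of the other 8 members passed limma's test with shApela #1, where 0.336% of all genes did (1534 genes at an unadjusted p under 0.05). With shApela #2 0 of these 8 passed, against 0.0150% of all genes (1151 at an unadjusted p under 0.05). Both comparisons use the same shLuc arrays. Groups did not overlap for 1 of these 8 with shApela #1, Ago2 upward, and Lin28a, downward, is left out of this count. The share of all genes was 13.7% (8.05% upward and 5.61% downward). With shApela #2 groups did not overlap for 3 of these 8, Lin28b, Drosha and Ago2, all downward, against 10.3% (5.68% upward and 4.65% downward). The median change of the members was -0.01 and -0.06, and that of all genes 0.01 and 0.02.

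No calls were counted between the hairpins, the contrast by which the set was chosen. There Lin28a, by which the set was chosen, was higher with shApela #2 without overlap, and it is left out of the count. Of the other 8 members 3 had groups that did not overlap, Lin28b, Drosha and Ago2, all lower with shApela #2. The share of all genes was 17.6% (7.49% higher and 10.1% lower).

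The members also shared a feature of the arrays. For 6 of the 9, Lin28a, Lin28b, Trim71, Dicer1, Dgcr8 and Xpo5, the third array was the highest in every group, as it was for 13.5% of all genes. The labels do not say what arrays of equal number have in common. Without the third shApela #2 array all 9 members were below their shLuc level with shApela #2, with a median of -0.08. So were 46.8% of all genes and 57.2% of those with a mean level of 9 or more. The third shLuc array, the highest of its group for the 6 genes above, stayed in that count. Leaving out only the third shApela #2 array lowers the difference of these 6 genes by itself. The count of 9 is therefore no finding about the members. Between arrays of equal number, shApela #2 lay below shLuc in every pair for Lin28b, Drosha and Ago2 and in none for Lin28a and Trim71.

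Genes that assist the members lay close to shLuc. The 17 measured of 19 nuclear processing partners, such as helicases and cap-binding proteins, had a median of 0.01 with shApela #1 and -0.02 with shApela #2, and 0 passed limma's test with either hairpin. Tardbp, an RNA-binding protein of the Microprocessor, differed by -0.10 and -0.13 (adjusted p = 0.725 and 0.68). Hnrnpa2b1, which promotes processing of methylated primary transcripts, differed by 0.08 and -0.03 (adjusted p = 0.936 and 0.83).

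The 34 measured of 35 Argonautes and silencing cofactors had a median of 0.01 and -0.03, with 0 past the test with either hairpin. Dcp2, the enzyme that removes the cap of messenger RNAs, showed the widest difference. It read 9.40, 9.39 and 9.46 in shLuc, 9.83, 9.76 and 9.77 with shApela #1, and 9.52, 9.48 and 9.20 with shApela #2. All shApela #1 arrays lay above all others, and the difference of 0.37 (SE 0.08) did not pass (limma, adjusted p = 0.122). It passed without the third shApela #2 array (0.00863), with the arrays numbered 1 and 2 (0.0243), a second quantile normalization (0.0365), array weights (0.00189) or only the compared arrays (0.0346). With shApela #2 it was -0.02 (adjusted p = 0.945). Wtip, a partner of the silencing complex, was 0.17 higher with shApela #1 (SE 0.05, adjusted p = 0.238).

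All 21 genes of uridylation and RNA decay were measured, with a median of 0.00 and -0.05, and 0 passed with either hairpin. Tent2, a nucleotidyl transferase that adds adenosines to RNA ends, read 10.66, 10.66 and 10.69 in shLuc, 10.84, 10.71 and 10.77 with shApela #1, and 10.58, 10.52 and 10.59 with shApela #2. Like Ago2, it lay above shLuc with one hairpin and below with the other, by 0.10 (limma, adjusted p = 0.633) and -0.11 (adjusted p = 0.68). Of the 97 genes in the 4 lists of partners, cofactors, decay genes and let-7 targets, 2 had this pattern without overlap (2.06%, against 0.762% of all genes), Tent2 and the let-7 target Igf1r. Eri1, a nuclease of small RNA ends, differed by 0.10 and -0.03 (adjusted p = 0.45 and 0.756). Tut4, named because Lin28a recruits it, differed by -0.13 and -0.12 (adjusted p = 1 and 0.702), and Tut7 by 0.12 and -0.18 (adjusted p = 1 and 0.693).

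Messenger RNAs known as let-7 targets lay on both sides of shLuc where Lin28a was low. Of 30 listed, 25 were measured. With shApela #1 11 lay below shLuc and 14 above (median 0.02). Their changes ran from -0.43 for Nr6a1 to 0.31 for Plagl2, and 2 fell and 0 rose by the test. Groups did not overlap there for 5 targets upward and 4 downward, against 8.05% and 5.61% of all genes. With shApela #2 20 lay below (median -0.08), with 0 past the test. Across all genes, 0.196% fell by the test with shApela #1 and 0.0150% with shApela #2.

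The 2 that fell were Nr6a1 and Arid3b. Nr6a1, an orphan nuclear receptor of early embryos, read 10.04, 10.19 and 10.10 in shLuc, 9.75, 9.68 and 9.63 with shApela #1, and 10.02, 10.04 and 10.06 with shApela #2. All shApela #1 arrays lay below all others, as for Lin28a. It fell by 0.43 on the log2 scale (SE 0.05, limma adjusted p = 0.0197) with shApela #1, to 74.5% of the control signal, and differed by -0.07 (adjusted p = 0.682) with shApela #2. Its call ended without the second or the third shLuc array (adjusted p = 0.0894 and 0.0757), any shApela #1 array (0.0943, 0.143 and 0.0647) or the second shApela #2 array (0.056), and with only the compared arrays (0.0518).

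Arid3b, a DNA-binding protein, read 9.10, 9.17 and 9.26 in shLuc, 8.76, 8.78 and 8.82 with shApela #1, and 9.12, 9.01 and 8.95 with shApela #2. The shApela #1 arrays were again the 3 lowest. It fell by 0.39 (SE 0.06, limma adjusted p = 0.0441) with shApela #1 and differed by -0.15 (adjusted p = 0.68) with shApela #2. The call ended without any single array but the third shApela #2 array (adjusted p from 0.0638 to 0.218), with centred array medians (0.0877), with an intensity trend (0.0611) and with only the compared arrays (0.0574).

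Hmga2, a chromatin protein and the best-known let-7 target, was named for that role after its values were seen. It read 8.10, 8.05 and 8.16 in shLuc, 7.90, 7.89 and 7.98 with shApela #1, and 7.94, 7.84 and 7.96 with shApela #2. Its level was thus below shLuc with both hairpins, by -0.18 and -0.19 (SE 0.05 each), and passed with neither (limma, adjusted p = 0.254 and 0.68). Igf1r, a growth factor receptor named after its values were seen, had group means of 9.17 in shLuc, 9.33 with shApela #1 and 8.92 with shApela #2, and the 3 groups did not overlap. Its differences of 0.16 and -0.25 (SE 0.07 each) passed with neither hairpin (adjusted p = 0.631 and 0.68).

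**Figure D3:**
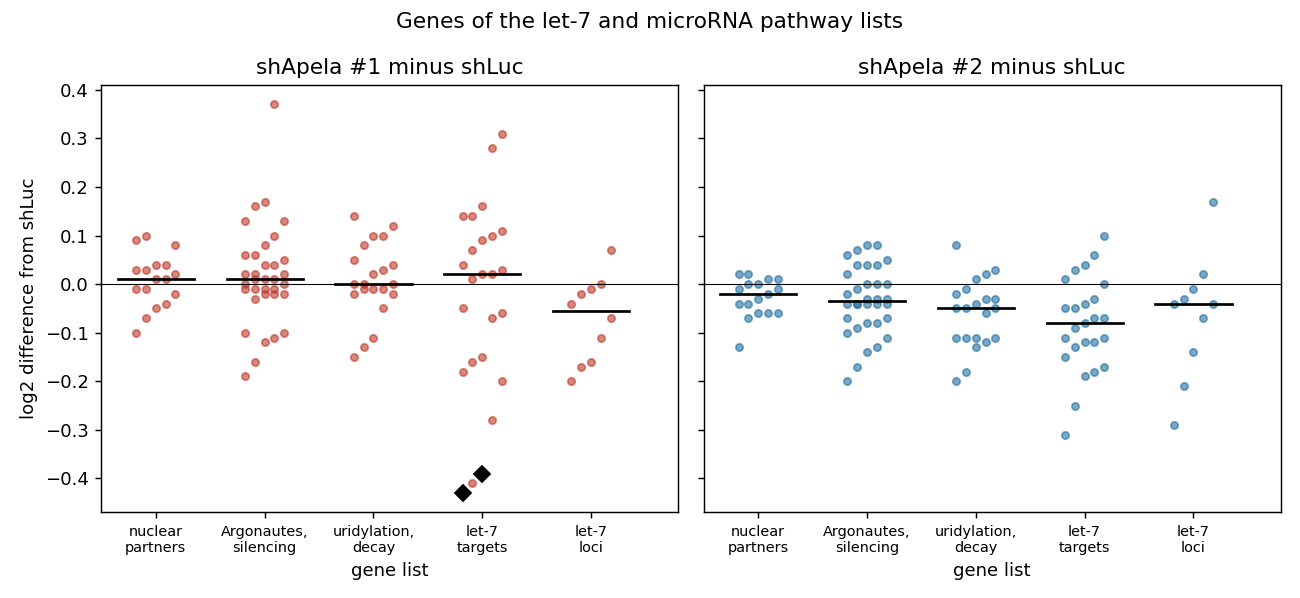
Log2 difference from shLuc for each measured gene of 5 lists, with shApela #1 and with shApela #2. Each point is a gene, bars are list medians, and black diamonds mark genes past limma's test. The 2 diamonds are Nr6a1 (-0.43) and Arid3b (-0.39) with shApela #1, and list medians lie between -0.08 and 0.02.

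The medians of the lists of partners, cofactors, decay genes and targets were lower with shApela #2 than with shApela #1. Bright genes as a whole also lay below shLuc more often with shApela #2. The lists were not matched for brightness and hold dimmer genes, such as Exosc3 (7.65 in shLuc). In some lists more than in others, the counts below shLuc moved with 1 array. Of the 5262 genes with a mean level of 9 or more, 68.2% lay below shLuc with shApela #2 and 44.7% with shApela #1. Without the third shApela #2 array the first share was 57.2%, and 15 of 25 let-7 targets (median -0.05), 18 of 34 silencing genes and 16 of 21 decay genes were below shLuc, against 20, 24 and 17 with it. For nuclear processing partners 12 of 17 were below shLuc both with and without that array (median -0.02 and -0.01). The parts of brightness and of that array in the medians were not tested further.

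No let-7 locus passed the test with either hairpin, and most lay slightly below shLuc. Of 12 family loci 10 had a probe set with a single symbol, 9 of them with GGAG between the arms. With shApela #1 9 of 10 lay below shLuc (median -0.06, from -0.20 for Mirlet7g to 0.07 for Mirlet7i), and with shApela #2 8 of 10 (median -0.04, from -0.29 for Mirlet7f-1 to 0.17 for Mirlet7i). Across all genes 45.5% and 42.4% lay below shLuc. Without the third shApela #2 array 7 of 10 loci lay below shLuc with shApela #2 (median -0.01). By limma 0 of the 10 passed with each hairpin, and 3 of the 10 had a level above the median probe set.

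Mirlet7i, whose precursor is printed above, read 7.50, 7.45 and 7.51 in shLuc, 7.60, 7.55 and 7.54 with shApela #1, and 7.54, 7.54 and 7.89 with shApela #2. Its shLuc arrays lay below the others (limma, adjusted p = 1 and 0.68). Mirlet7g read 6.39, 6.52 and 6.06, then 6.22, 6.22 and 5.92, then 6.35, 6.50 and 5.70 in the same order of groups. Mirlet7f-1 read 5.85, 6.17 and 5.20, then 5.72, 5.67 and 5.36, then 5.80, 5.67 and 4.88. In both, the groups overlapped and the third array was the lowest of every group, as it was for 2205 of all 19938 genes. Mirlet7i did not have this order. For Lin28a the third array was the highest of every group, as it was for 13.5% of all genes.

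**Figure D4:**
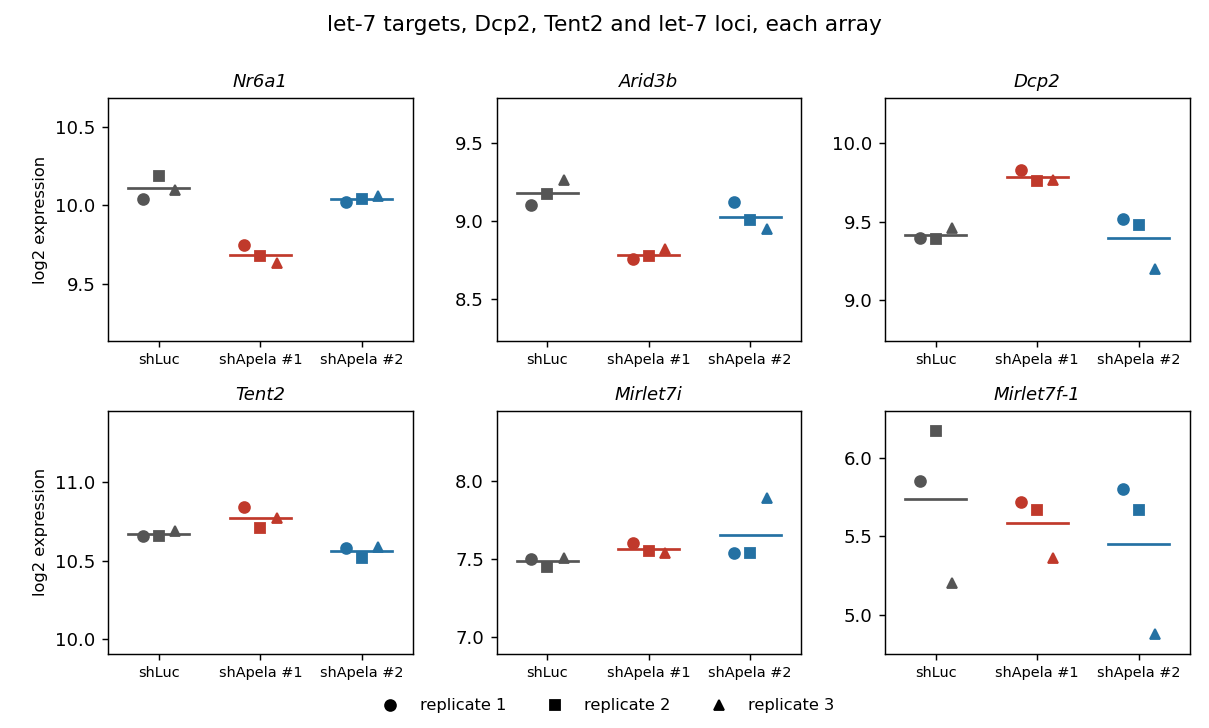
Log2 expression on every array, by group, of the let-7 targets Nr6a1 and Arid3b, of Dcp2 and Tent2, and of the let-7 loci Mirlet7i and Mirlet7f-1. Points are arrays, shapes give the replicate number, and lines are group means. All panels span the same number of log2 units, each around its own centre. Nr6a1 and Arid3b are low on the shApela #1 arrays (9.63 to 9.75 and 8.76 to 8.82), and Mirlet7f-1 is lowest on the third array of each group.

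Markers of the primed epiblast, the state that follows that of naive stem cells, were on average lower with shApela #1, though not all of them. By that comparison 7 of 9 lay below shLuc, from -0.93 for Lef1, whose product carries Wnt signals, and 2 above, Zic2 (0.26) and Sox3 (0.03). The mean of 9 markers per array lay from 8.89 to 9.14 in shLuc, from 8.65 to 8.85 with shApela #1 and from 8.93 to 9.20 with shApela #2, and 8 of the 9 lay above the median probe set. None passed limma's test (0 with each hairpin). Trophectoderm markers were from 7.39 to 7.56, from 7.11 to 7.42 and from 7.40 to 7.54 in the same order of groups. Markers of stem cells did not split the groups, with a mean per array from 11.22 to 11.25, from 11.20 to 11.24 and from 11.16 to 11.29. Their part in the Lin28a levels was not tested.

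The genes whose pattern over the 9 arrays was most like that of Lin28a were sought among 1847 genes at or above the median level and with a range of at least 0.5. The likeness is Pearson's r, a description that rests largely on the gap between shApela #1 and the rest. The highest belonged to Tmbim6 (0.99), Myd88 (0.98), Fgf5 (0.97), Hormad1 (0.97) and Glipr2 (0.96). Fgf5, a growth factor gene of the primed epiblast, had group means of 7.94, 7.47 and 8.03 in shLuc, shApela #1 and shApela #2. The lowest belonged to Itgb5, Ndn, Rerg and Ankrd52 (-0.97 each) and Serpinb6c (-0.96). Ankrd52, which encodes a subunit of a phosphatase that acts on Argonaute 2, had group means of 8.51, 8.97 and 8.49, so it was highest where Lin28a was lowest.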

How the data were processed

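The table deposited by the authors gives a log2 expression level for each probe set on each array, from RMA in Partek 6.6, per the submitters' processing notes. This method corrects background, quantile-normalizes arrays and summarises probes. Base 2 was inferred from the values' range, and quantile normalization gives all arrays like distributions, so changes are relative to the other genes. Array medians lay from 7.03 to 7.12. Scanner intensities were not used here. Precision is limited by the number of arrays. Of 28853 probe sets, 21775 carried 1 gene symbol in GEO's platform annotation, 1578 several and 5500 none. Only the first kind was used, and the brightest probe set stood for each of 19938 genes. RefSeq (GRCm38.p6) matched 21684 by gene identifier and changed 0 symbols.

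Groups and replicate numbers came from the sample titles. The test was limma 3.58.1 in R 4.3.3 (eBayes after lmFit, two-sided), fitted once to the 9 arrays together, with Benjamini-Hochberg adjustment over 19938 genes and a threshold of 0.05. Levels are means ± SD, and changes carry limma's SE. The fit was tested on simulated data. Members, lists, alternatives and named genes were chosen with earlier results of these data known. Named were the members, Apela, in each list the genes past the test or the 2 with the smallest p, the let-7 loci, and the 5 genes at each end of likeness to Lin28a.

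Deviations from the group mean were compared between arrays of equal number. Their correlations were 0.44, 0.40 and 0.68 for shLuc with shApela #1, 0.18, 0.21 and 0.21 for shApela #1 with shApela #2, and -0.01, 0.67 and 0.47 for shLuc with shApela #2. By these values alone, the numbers were read as pairing the arrays in the first 2 comparisons. The main fit had no term for replicate number, which entered only through the replicate block, an alternative. The alternatives comprised a robust prior with an intensity trend, dim genes left out, a second quantile normalization, centred medians, array weights, the replicate block, only the compared arrays, probe sets averaged per gene, a threshold of 0.01 and each array left out. A fit of the arrays numbered 1 and 2 alone, and list counts without the third shApela #2 array, were chosen after seeing the data.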

Additional observations from a re-analysis of the deposited data

Results flagged for a closer look

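Ago2, the Argonaute that cleaves targets, was above shLuc on every shApela #1 array and below it on every shApela #2 array, so the hairpins' changes differed by -0.24 (shApela #2 minus shApela #1). Tent2, an enzyme that extends RNA ends, did the same, with a difference of -0.21. So did Igf1r, a growth factor receptor and let-7 target, with -0.41. They were noted because all arrays of one group moved one way and all of the other the opposite way. The difference was not tested, and all changes are measured from the same shLuc arrays. For Ago2 the gap from shLuc to shApela #1 was only 0.004, and the groups overlapped on its second probe set. Of all genes 0.762% had this pattern.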

How the results depend on the processing

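With 3 arrays in a group, counts of calls moved with single arrays and with the weighting. Of the 8 members other than Lin28a, 0 passed against shLuc with either hairpin in every setting run, the replicate block and each array left out included. The Lin28a difference between the hairpins lay between 0.42 and 0.54. These fits reuse the arrays by which the set was chosen, so this range is a description and no support for the difference. No calls were counted between the hairpins, the contrast that chose the set.

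The 2 calls over the 4 lists of partners, cofactors, decay genes and targets with shApela #1 became 1 with an intensity trend, centred medians or only the compared arrays, 8 with array weights, 3 with a second quantile normalization, the replicate block or the arrays numbered 1 and 2, 0 at 0.01, and 0 to 3 with an array left out. With only the compared arrays that 1 call was Dcp2, and neither Nr6a1 nor Arid3b passed. Over all genes, the 67 calls with shApela #1 became 3 without the second shApela #1 array, 146 without the third shApela #2 array and 688 with array weights. The replicate block gave 190 and 8 calls where the fit without it gave 67 and 3. With shApela #2 the numbers do not meet the pairing rule.

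Signs against shLuc turned among differences near 0 of members and of Dcp2, none of them called. With shApela #1 these were Dicer1 (0.00 after a second quantile normalization and with array weights, 0.01 with the arrays numbered 1 and 2, and -0.03 to 0.02 with an array left out), Dgcr8 (0.06 with the arrays numbered 1 and 2, and -0.11 to 0.08), Trim71 (-0.01 to 0.17) and Drosha (-0.05 to 0.04). With shApela #2 these were Lin28a (-0.03 without the third shApela #2 array), Dicer1 (-0.04 with centred medians, and -0.03 to 0.03), Trim71 (-0.03 with array weights, and -0.06 to 0.15), Xpo5 (0.02 after a second quantile normalization, and -0.08 to 0.07), Dgcr8 (0.01 with the arrays numbered 1 and 2, and -0.14 to 0.05) and Dcp2 (0.02, 0.08 with array weights, 0.11 with the arrays numbered 1 and 2, and -0.08 to 0.08). The cause was not tested.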

Other observations

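Of the microRNA loci listed as typical of embryonic stem cells, those measured were mostly low on these arrays. The listed loci from Mir290a to Mir295 were not among those measured. Of 15 listed, 6 had a probe set with a single symbol (Mir302a, Mir302b, Mir302c, Mir302d, Mir367 and the host transcript Mir17hg), and 1 of the 6, Mir17hg, lay above the median probe set. All 6 lay below shLuc with both hairpins, with medians of -0.06 and -0.12, and 0 passed limma's test. Across all genes 45.5% and 42.4% lay below shLuc. The Mir302 loci and Mir367 had group means from 4.39 to 5.20, well under the median probe set (7.06). Mir17hg, the transcript that holds the miR-17 cluster, measured 8.41 in shLuc, 8.31 with shApela #1 and 8.23 with shApela #2. Without the third shApela #2 array 5 of the 6 lay below shLuc (median -0.06).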
